A study of Homo sapiens with 4 samples.

Results

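Transcript levels of 10 leukocyte adhesion genes were examined in 2 myeloid leukemia lines treated with periplocin. The genes were the intercellular adhesion molecules ICAM1, ICAM2 and ICAM3, the integrin subunits ITGAL, ITGA4, ITGA5, ITGA6 and ITGB1, the selectin ligand SELPLG, and CD44. They were taken by Ensembl identifier from the 20348 genes of the deposited table. The choice followed their known roles, with earlier results of these data known. K562, a chronic myeloid leukemia line with erythroid features, and THP-1, an acute monocytic leukemia line, were each given DMSO or 100 nM periplocin, a cardiac glycoside, for 72 h. The GEO labels call the untreated samples blank controls, and the library names call them DMSO. Poly(A) RNA was sequenced from 1 library per condition, so the 4 libraries had no replicate check. All differences within a line therefore carry counting error only and no p-value.

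Leukocytes slow down on a vessel wall when selectins bind sialylated, fucosylated sugars on P-selectin glycoprotein ligand 1 (PSGL-1), the product of SELPLG. Firm arrest follows when integrins, which are pairs of an alpha and a beta subunit, are switched on from inside the cell. The integrin LFA-1 (ITGAL with ITGB2) binds ICAMs, VLA-4 (ITGA4 with ITGB1) binds VCAM1 and fibronectin, and CD44 binds hyaluronan in the matrix and marrow.

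The periplocin library of THP-1 held more ICAM1, ITGA6, CD44 and ITGAL transcript and less ICAM2 than the DMSO library. In K562 SELPLG was higher with periplocin, and CD44, which was near 1 CPM there, was lower. CD44 was thus called in opposite directions in the 2 lines, and ICAM1, ITGA5, ITGB1 and SELPLG had values on opposite sides of no change without a call in both. The lines also differed widely between their DMSO libraries. In these, ITGA4, ITGAL, CD44 and ITGA6 were at or near 0 in K562 and detected in THP-1, while ICAM1 and ICAM2 were higher in K562.

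The ICAM1 promoter is shown because ICAM1 had the largest treatment ratio of the 10 genes and is a textbook target of NF-κB, so nothing about its response can be read from the match. RefSeq promoter windows (GRCh38.p14), each from 250 bases before to 50 bases after a transcription start, were at hand for 7 of the 10 genes, with 11 windows in all. ICAM2, ITGAL and SELPLG had none. The stretches are written 5′ to 3′ along the gene, with the searched letters in capitals, and positions count back from the RefSeq start.
ICAM1 NF-κB site form, chr19:10270924-10270953, plus strand: gctttagcttGGAAATTCCggagctgaagc
ICAM1 interferon-γ activated site (GAS) form, chr19:10271035-10271064, plus strand: ggcgcgaggtTTCCGGGAAagcagcaccgc
ICAM1 TATA box, chr19:10271078-10271107, plus strand: ggtggctagcgcTATAAAggatcacgcgcc
CD44 GC box, chr11:35138989-35139018, plus strand: cagcagagcacgGGGCGGgggcagaggggc
ITGA6 GC box, chr2:172427519-172427548, plus strand: gagggtggggagGGGCGGggccggcgtcct
ITGA5 AP-1 site form, chr12:54419254-54419283, minus strand: cctccccgcgtTGAGTCAttcgcctctggg

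The first base of the NF-κB letters lay at -186 in ICAM1, that of the GAS letters at -75 and that of the TATA box at -30. Searched on both strands, GGAAATTCC occurred in 0.461% of 35116 promoter windows and in the ICAM1 window but in none of the other 10 windows. The second NF-κB form, GGGANTTTC, occurred in 1.28% of all windows and in 0 of the 11. The GAS letters TTCNNNGAA occurred in 7.66% of all windows and here in ICAM1 alone. TATAAA occurred in 11.5% of all windows and in those of ICAM1, ITGA6 and ITGB1. The GC box GGGCGG occurred in 45% of all windows and in 7 of the 11. TGANTCA, the AP-1 form, occurred in 7.71% of all windows and here in ITGA5 alone, where it began at -6. A PU.1/ETS form with the letters GAGGAAG was found in 13.6% of all windows and in 1 ICAM3 window. The E box spelled CACGTG was found in 7.26% of all windows and in 1 ITGA6 window. A GATA form spelled AGATAA was found in 10.3% of all windows and in 0 of the 11. In GENCODE 29 the longest ICAM1 model starts further upstream than the RefSeq start. Each of the 3 ICAM1 stretches lies wholly in an exon of 1 of 5 ICAM1 transcripts and overlaps no coding sequence. The CD44 stretch lies in an exon of 3 of 39 transcripts and the ITGA5 stretch in that of 1 of 13. Both are outside coding sequence, and the ITGA6 stretch lies between exons. These matches describe letters only, and no binding was measured.

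The libraries summed to between 16381149 and 20622694 rounded counts, and levels are given as CPM (counts as a share of the library, scaled by TMM, the trimmed mean of M values). A gene was called when its ratio reached 2-fold and the 95% counting interval of the ratio lay entirely above or below no change, among genes with at least 10 counts in the pair of libraries. The labels were checked against marker lists. The 11 erythroid markers summed to 2630 CPM in K562 with DMSO and 268 CPM in THP-1, and the 12 monocytic markers to 113 and 2470 CPM. TFRC alone held 257.3 of the 268 CPM in THP-1 with DMSO. Endothelial CDH5 and the B-cell marker MS4A1 were at 0 in all 4 libraries, and CD3D, CD3E and CD3G were at 0 in both THP-1 libraries. The 7 T and NK markers, CD4 and NCAM1 among them, nonetheless summed to 479 and 573 CPM in THP-1, and the 6 endothelial markers, PECAM1 among them, to 409 and 637 CPM. In K562 with DMSO and with periplocin, CD3D held 121 and 105 counts, CD3G 20 and 16, and CD3E 10 and 5. The 8 fibroblast and epithelial markers summed to 643 and 544 CPM in K562, with EPCAM, KRT8 and KRT18 among them, and the 5 B-cell markers to at most 11.1 CPM in any library. In bulk RNA, fewer cells with a transcript and less of it per cell cannot be told apart.

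**Figure D1:**
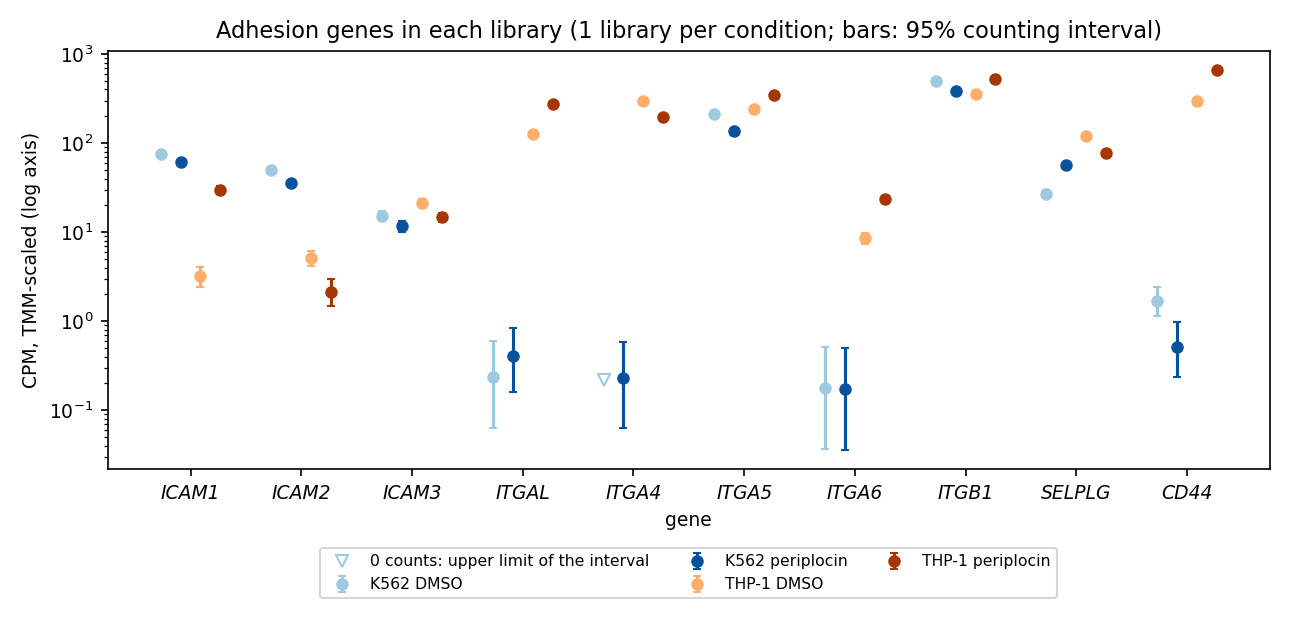
Level of each adhesion gene in each of the 4 libraries, as TMM-scaled CPM on a log axis, with 95% counting intervals; the open triangle is the upper limit for ITGA4 in K562 with DMSO, which had 0 counts. ITGAL, ITGA4, ITGA6 and CD44 sit at most at 1.70 CPM in K562 and at 8.50 CPM or more in THP-1, while ICAM1 and ICAM2 are higher in K562.

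In the DMSO libraries, 7 of the 10 genes were called between the lines, 5 higher and 2 lower in THP-1. Over all 14137 genes tested, 46.1% were called, 24.4% higher and 21.7% lower in THP-1. The median log2 ratio of the 10 genes was 1.32, beside 0.04 over all genes. ITGA4, the alpha subunit of VLA-4, had 0 counts in K562 with DMSO, where 3 counts correspond to 0.176 CPM, and 5850 counts in THP-1. Set against that floor of 3 counts in the K562 library, ITGA4 was 1680-fold higher in THP-1, a log2 ratio of 10.72. The 95% counting interval of the log2 ratio had a lower limit of 10.42 and no upper limit. ITGAL, the alpha subunit of LFA-1, had 4 counts in K562 and 2501 in THP-1, a log2 ratio of 9.08 (95% counting interval 7.72 to 10.95). CD44 had 29 and 5864 counts, a log2 ratio of 7.45 (6.92 to 8.03). ITGA6, an alpha subunit of laminin-binding integrins, had 3 and 168 counts, a log2 ratio of 5.60 (4.02 to 7.89). All 4 thus had at least 168 counts in THP-1 and at most 29 in K562. SELPLG was also higher in THP-1, at 120.5 against 27.1 CPM, a call that was lost with an assumed dispersion of 0.16.

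The ICAM genes ran the other way. ICAM1 stood at 74.5 CPM in K562 and 3.19 CPM in THP-1, 23.4-fold lower in THP-1, with a log2 ratio of -4.55 (-4.94 to -4.18). ICAM2 stood at 49.2 CPM in K562 and 5.06 CPM in THP-1, 9.72-fold lower in THP-1. ICAM3, a member of the family found on resting leukocytes, had similar levels, 15.3 CPM in K562 and 21.3 CPM in THP-1, and was not called. ITGB1, the common beta subunit of the VLA integrins, was high in both lines, at 499.3 and 358.6 CPM. Its fibronectin-receptor partner ITGA5 was at 212.2 and 239.0 CPM. Neither of these reached 2-fold between the lines.

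Levels of different genes were compared per length of transcript (CPM per kb of the GENCODE 29 transcript). ITGB1 was the highest of the 10 genes in all 4 libraries, from 94.8 to 140 CPM per kb. With DMSO the order below it in K562 was ITGA5 at 47.8, ICAM2 at 36.9 and ICAM1 at 22.9 CPM per kb. In THP-1 with DMSO it was ITGA4 at 70.7, ITGA5 at 53.8, SELPLG at 53.4 and CD44 at 51.8 CPM per kb, and ICAM1 was last at 0.981. The counting intervals of SELPLG overlapped those of both its neighbours, ITGA5 and CD44. With periplocin, CD44 moved to second place in THP-1 at 114 CPM per kb, and ICAM1 to seventh at 9.20, with an interval that overlapped that of ICAM3 below it.

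In THP-1, 5 of the 10 genes were called with periplocin, 4 higher and 1 lower. Over all 13679 genes tested, 20.6% were called, 9.06% higher and 11.5% lower. The median log2 ratio was 0.55 for the 10 genes and -0.03 for all genes. When a spread between replicates was assumed, 3 of the 5 calls were kept at a dispersion of 0.04, those of ICAM1, ITGA6 and CD44, and 0 at 0.16. ICAM1, on chromosome 19 (chr19:10270835-10286615, plus strand, 7 exons), had 63 counts with DMSO and 506 with periplocin, or 3.19 and 29.9 CPM. It rose 9.38-fold, a log2 ratio of 3.23 (95% counting interval 2.85 to 3.63), above 99% of the genes tested. Its level with periplocin in THP-1 was still below the 74.5 and 61.1 CPM of the K562 libraries.

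ICAM2 and ICAM3 did not follow ICAM1 in THP-1. ICAM2 (chr17:64002594-64020634, minus strand) had 100 counts with DMSO and 36 with periplocin, and fell by 1.25 on the log2 scale (-1.84 to -0.69). Its exons share 653 bases with PRR29 on the opposite strand. PRR29 had 41, 40, 1 and 9 counts in K562 with DMSO and periplocin and in THP-1 with DMSO and periplocin. ICAM1 exons share 815 bases with antisense AC011511.5, and ICAM3 exons share 1382 with antisense AC114271.1. Exons of ITGAL, CD44, ITGA6 and ITGA5 also share bases with antisense genes. These antisense genes, unlike PRR29, were not among the genes counted, so any shared reads could not be judged. ICAM3 stood at 21.3 CPM with DMSO and 14.7 CPM with periplocin, a log2 ratio of -0.54, and was not called. ICAM4 and ICAM5 held at most 15 counts in THP-1. As a share of the summed CPM per kb of the 5 ICAM genes, ICAM1 went from 6.05% to 47.8% and ICAM3 from 67.9% to 39.4%.

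Of the integrin subunits, ITGAL and ITGA6 rose in THP-1 and the other 3 were not called. ITGAL (chr16:30472658-30523185, plus strand) stood at 126.6 CPM with DMSO and 273.1 CPM with periplocin, a log2 ratio of 1.11 (1.04 to 1.18). Its beta partner ITGB2, the shared subunit of the leukocyte integrins, stood at 461.5 and 861.1 CPM, a log2 ratio of 0.90 that did not reach 2-fold. ITGAM, which also pairs with ITGB2, rose from 28.9 to 62.8 CPM. Transcripts of both LFA-1 subunits were thus at higher levels with periplocin, and ITGB2 made up 58.6% and then 64.5% of the summed CPM per kb of the 8 beta subunits.

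ITGA6 (chr2:172427354-172506282, plus strand) rose from 8.50 to 23.4 CPM, a log2 ratio of 1.46 (1.19 to 1.73). Its beta partner ITGB4 held 27 and 16 counts, so most of the beta transcript that could pair with ITGA6 here was ITGB1. ITGA4 (chr2:181457202-181536187, plus strand) stood at 296.1 CPM with DMSO and 198.1 CPM with periplocin, a log2 ratio of -0.58. ITGA5 (chr12:54395261-54419460, minus strand) stood at 239.0 and 348.8 CPM, a log2 ratio of 0.55. ITGB1 (chr10:32900319-33005792, minus strand) stood at 358.6 and 528.3 CPM, a log2 ratio of 0.56. The intervals of all 3 lay entirely above or below 0 but none of the ratios reached 2-fold.

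These values changed the order of the alpha subunits. ITGA4 held the largest share of the summed CPM per kb of 18 alpha subunits in THP-1 with DMSO, 36.8%, ahead of ITGA5 at 28% and ITGAL at 12.6%. With periplocin ITGA5 was first at 30.1%, followed by ITGAL at 20.1% and ITGA4 at 18.1%. The other beta partner of ITGA4, ITGB7, stood at 15.7 and 11.4 CPM. VCAM1, the ligand of VLA-4 on endothelium, had 0 counts in all 4 libraries, which leaves levels under 3 counts, or 0.152 to 0.177 CPM, undetected.

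CD44 (chr11:35138870-35232402, plus strand) stood at 296.8 CPM in THP-1 with DMSO and 653.6 CPM with periplocin. It rose 2.20-fold, a log2 ratio of 1.14 (1.09 to 1.18). SELPLG (chr12:108622277-108633959, minus strand) stood at 120.5 and 77.9 CPM, a log2 ratio of -0.63 (-0.73 to -0.53), and was not called. The homing receptor and the selectin ligand thus had ratios of opposite sign in this line. Of the 12 monocytic markers 4 were called higher and 3 lower in THP-1 with periplocin (58.3%), beside 20.6% over all genes. Their sums were 2470 and 2390 CPM, and their part in these results was not tested.

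**Figure D2:**
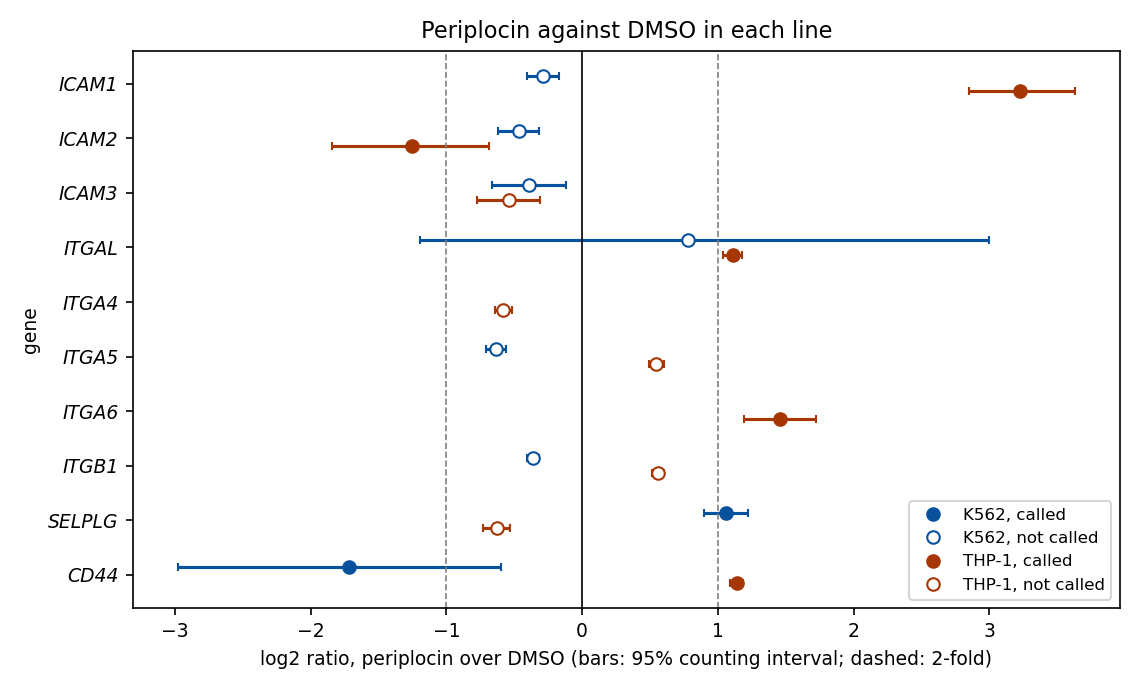
Log2 ratio of periplocin over DMSO for each gene in K562 (blue) and THP-1 (brown), with 95% counting intervals; filled points were called, dashed lines mark 2-fold, and ITGA4 and ITGA6 in K562 are left out for low counts. ICAM1 in THP-1 is farthest to the right at 3.23, and ICAM1, ITGA5, ITGB1, SELPLG and CD44 lie on opposite sides of 0 in the 2 lines, CD44 with a call in each.

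In K562, 8 of the 10 genes had enough counts to test and 2 were called, 1 higher and 1 lower. Over all 13075 genes tested, 21.9% were called, 9.88% higher and 12% lower, so the share of called adhesion genes, 25%, was near that of all genes. The median log2 ratio was -0.37 for the 8 genes and -0.02 for all genes. SELPLG had 462 counts with DMSO and 981 with periplocin, or 27.1 and 56.4 CPM. It rose 2.08-fold, a log2 ratio of 1.06 with an interval, 0.90 to 1.22, that spans the 2-fold line. CD44 had 29 and 9 counts and fell by 1.71 on the log2 scale (-2.98 to -0.60), from 1.70 to 0.518 CPM. Neither call was kept at an assumed dispersion of 0.04 or 0.16.

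The remaining genes of K562 were not called. ICAM1 stood at 74.5 CPM with DMSO and 61.1 CPM with periplocin, a log2 ratio of -0.29 (-0.41 to -0.17). ICAM2 stood at 49.2 and 35.6 CPM and ICAM3 at 15.3 and 11.7 CPM, with log2 ratios of -0.47 and -0.39. ITGA5 stood at 212.2 and 136.8 CPM, a log2 ratio of -0.63, and ITGB1 at 499.3 and 389.1 CPM, a log2 ratio of -0.36. The 3 ICAM genes and both subunits of the fibronectin receptor therefore all had ratios below 0, each short of 2-fold. ITGAL had 4 and 7 counts, ITGA6 had 3 and 3, and ITGA4 had 0 and 4, too few to give a direction.

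The alpha subunit ITGAV, which binds vitronectin and also pairs with ITGB1, stood at 98.7 CPM in K562 with DMSO and 187.4 CPM with periplocin, a log2 ratio of 0.92. ITGA5 went from 71.5% to 49.8% of the summed CPM per kb of the alpha subunits and ITGAV from 21% to 43.1%. ITGB1 held 89.8% and 88.4% of the beta subunits. ITGB7 was called higher, from 14 to 52 counts, and ITGB4 lower, from 146 to 44 counts. ICAM4, an erythroid ICAM, took the largest share of the ICAM genes, 39.2% and 51.9%. In K562, 10 of the 11 erythroid markers were called higher with periplocin (90.9%), beside 9.88% over all genes. Their sum went from 2630 to 10500 CPM, and their part in the results on adhesion genes was not tested.

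**Figure D3:**
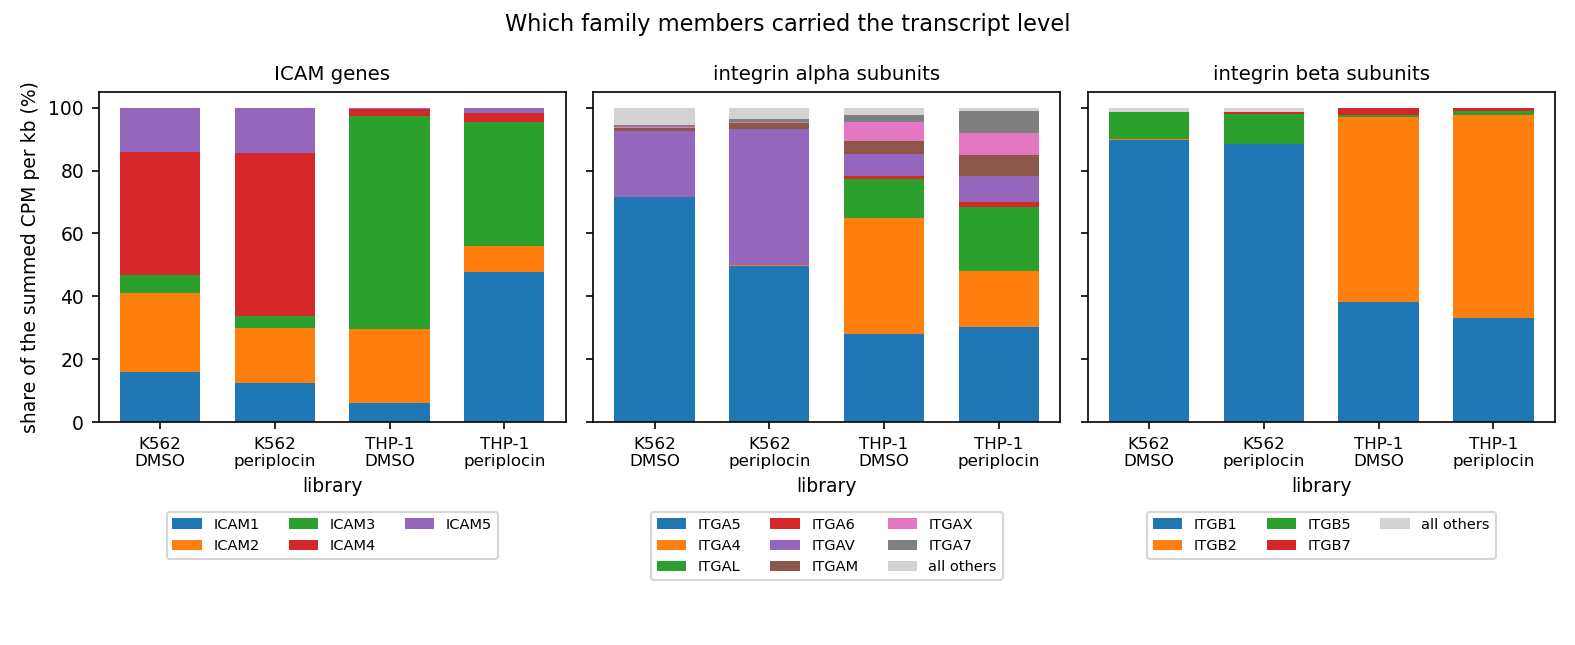
Share of the summed CPM per kb of transcript held by each of 5 ICAM genes, 18 integrin alpha subunits and 8 integrin beta subunits in each library, in percent, with genes not named in the legend drawn in grey. ICAM1 takes 6.05% of the ICAM total in THP-1 with DMSO and 47.8% with periplocin, and ITGA4 goes from 36.8% to 18.1% of the alpha total.

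The responses of the lines were set against each other for the 6 genes with at least 10 counts in every library, which leaves out CD44, with 9 counts in K562 with periplocin and log2 ratios of -1.71 in K562 and 1.14 in THP-1. ICAM1 differed most, with a log2 ratio 3.52 higher in THP-1 than in K562 (95% counting interval 3.12 to 3.91). The difference was 1.18 for ITGA5 (1.09 to 1.27) and 0.92 for ITGB1 (0.85 to 0.98), so the fibronectin receptor subunits had ratios above 0 in THP-1 and below 0 in K562. It was -1.69 for SELPLG (-1.88 to -1.5). ICAM2 had ratios below 0 in both lines, lower in THP-1 by 0.78 (difference -1.35 to -0.21). For ICAM3 the difference was -0.15 with an interval of -0.50 to 0.20. These intervals hold counting error only, so the differences between lines were not tested against replicates. The same comparison was not made over all genes, so it cannot say whether these 6 genes differ more than others.

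A fit of treatment over both lines, with the line as a term, left 1 residual degree of freedom. What it takes as error is how far the 2 lines differ in response. By edgeR's quasi-likelihood test with Benjamini-Hochberg adjustment, 0 of 13584 genes (0%) had an adjusted p under 0.05, and 1535 had an unadjusted p under 0.05. DESeq2 called 125 of 11740 genes (1.06%). By either tool 0 of the 10 adhesion genes were called. ITGAL had the smallest p by edgeR's quasi-likelihood test, 0.0198 unadjusted and 0.384 adjusted, with a log2 ratio of 1.05. In K562 it had only 4 and 7 counts, too few to give a direction there. ICAM1 had a log2 ratio of 1.41 in this fit, with an adjusted p of 0.567, its ratios being of opposite sign in the 2 lines.

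Genes that act with these 10 were counted in 10 lists holding 146 genes. In THP-1, 124 of them were tested, with 25 called higher and 21 lower (37.1%), beside 20.6% over all genes. In K562 109 were tested, with 19 higher and 15 lower (31.2%), beside 21.9% over all genes. Their median log2 ratios were 0.25 and 0.09. The enzymes that glycosylate or sulfate selectin ligands such as PSGL-1 are 1 of these lists, and in THP-1 3 of its 11 tested genes were called lower and 2 higher (45.5%). FUT4, a fucosyltransferase, fell from 481.0 to 162.5 CPM, a log2 ratio of -1.57. ST3GAL4, a sialyltransferase, fell from 55.1 to 21.0 CPM, whereas ST3GAL6, another sialyltransferase, rose from 10.6 to 38.2 CPM. The other gene called higher was TPST2, a tyrosine sulfotransferase, at 25.4 and 64.5 CPM. FUT7, the fucosyltransferase of leukocyte selectin ligands, fell from 410 to 172 counts. In K562, 1 of 8 was called, the chaperone C1GALT1C1, which rose from 15.8 to 36.9 CPM. Among selectins and other selectin ligands, CD24 rose from 2.52 to 32.5 CPM in K562 and PODXL fell from 16.0 to 6.68 CPM in THP-1.

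The integrin activation list holds genes that promote activation and genes that restrain it. In THP-1, 2 were called higher and 4 lower of 19 (31.6%), beside 20.6% over all genes. FERMT3 (kindlin-3), which binds beta tails in blood cells, rose from 110.3 to 254.3 CPM. RASSF5 (RAPL), an effector of RAP1 on LFA-1, rose from 90.9 to 207.3 CPM. RASGRP2, which loads RAP1 with GTP, fell from 113.1 to 39.1 CPM. RAP1GAP, which turns RAP1 off, was also called lower, from 30 to 7 counts. In K562, 4 of 17 were called (23.5%), all lower. Over all genes in K562 21.9% were called, a share near this one, with 12% lower. RASGRP2 was among them, from 247 to 32 counts, so it was called lower in both lines. FLNA, a filamin that competes with talin for beta tails, fell from 2066 to 454.8 CPM, and FERMT2 (kindlin-2) from 22.4 to 4.49 CPM.

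In the focal adhesion list, PTK2, the focal adhesion kinase, fell from 18.8 to 1.54 CPM in THP-1, a log2 ratio of -3.62, and NEDD9, a docking protein, rose from 16.96 to 45.5 CPM. TNS1, a tensin that links integrins to actin, fell from 41.4 to 11.4 CPM in THP-1 and rose from 10.02 to 119.9 CPM in K562. ZYX, zyxin, fell from 109.1 to 39.2 CPM in K562. Counts were 2 higher and 3 lower of 19 in THP-1 (26.3%), and 2 higher and 2 lower of 15 in K562 (26.7%), shares near those over all genes.

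Around CD44, 3 genes were called higher and 2 lower of 16 in THP-1 (31.2%), and 2 higher and 1 lower of 14 in K562 (21.4%), the latter close to the 21.9% over all genes. SPP1 (osteopontin), a ligand of CD44 and of integrins, rose from 4.91 to 32.9 CPM in THP-1. MMP14, a membrane protease that can cleave CD44, rose from 183.2 to 380.7 CPM there. HMMR, a hyaluronan receptor that also acts at the mitotic spindle, rose from 74.2 to 179.1 CPM in K562. Of 10 integrin-associated tetraspanins, 3 were called higher and 1 lower in each line (40%), beside 20.6% over all genes in THP-1 and 21.9% in K562. CD53 was called higher in both lines, from 41.2 to 95.9 CPM in K562 and from 46.6 to 194.0 CPM in THP-1. CD63 rose from 214.8 to 584.1 CPM in THP-1.

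Other immunoglobulin superfamily adhesion genes were called 4 higher and 0 lower of 15 in THP-1 (26.7%), beside 20.6% over all genes. Among them were F11R (JAM-A, a ligand of LFA-1), from 37.7 to 123.3 CPM, and CD99, from 39.5 to 90.6 CPM. In K562 0 were higher and 1 lower of 13 (7.69%), beside 21.9% over all genes. Other integrin alpha subunits were called 3 higher and 3 lower in each line, of 12 tested in THP-1 (50%) and 11 in K562 (54.5%). ITGA7, a laminin receptor subunit, rose from 16.9 to 75.2 CPM in THP-1. ITGB5 rose there from 8.05 to 23.8 CPM as the 1 called of 4 other beta subunits (25%), and in K562 2 of 5 were higher and 1 lower (60%). Matrix ligands were called 5 higher and 3 lower of 12 in THP-1 (66.7%), with LAMA3 and COL4A1 falling from 28.0 to 5.85 CPM and from 27.8 to 9.63 CPM. In K562 4 were higher and 2 lower of 10 (60%), with LAMB2 rising from 35.0 to 81.0 CPM.

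**Figure D4:**
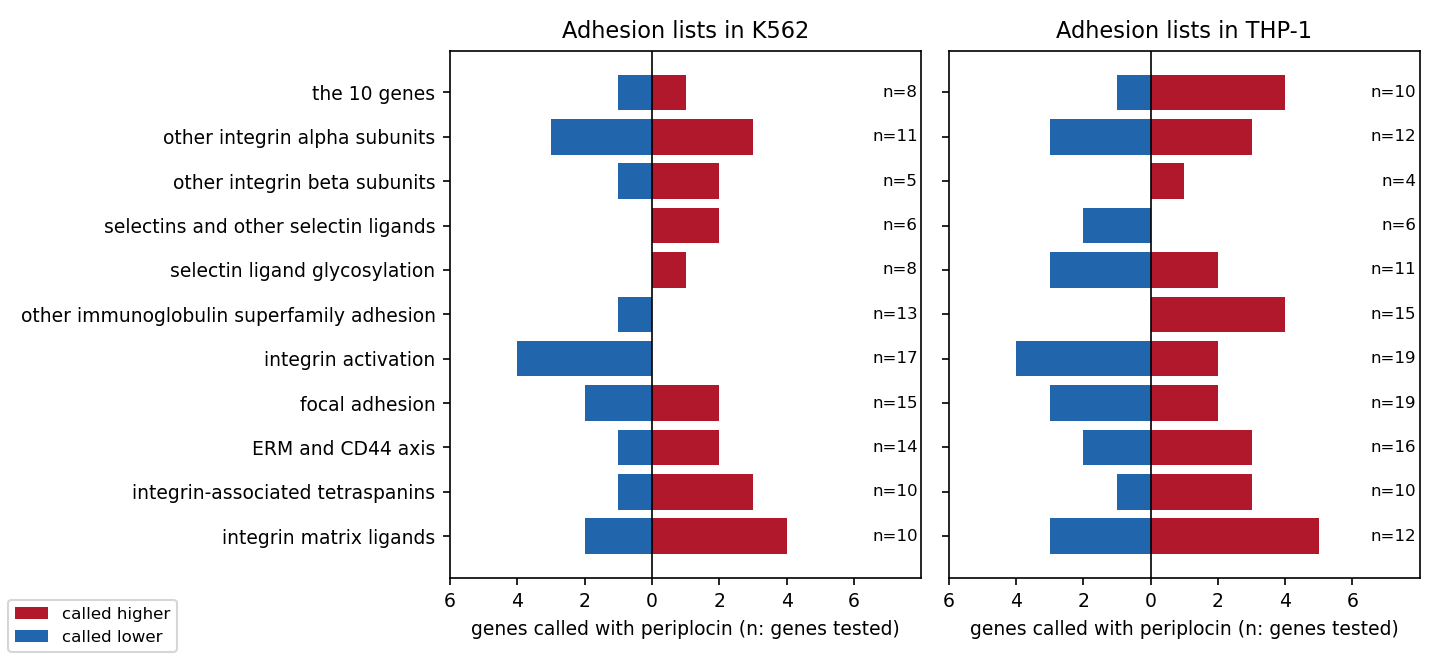
Number of genes called higher (red, to the right) and lower (blue, to the left) with periplocin in each adhesion list, in K562 and THP-1; n is the number of genes tested. The 10 genes described here have 4 calls to the right in THP-1 and 1 in K562, and integrin activation genes have 4 calls to the left in each line.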

How the data were processed

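Poly(A) RNA of 4 libraries was measured by sequencing, 1 per line and treatment. The submitters' processing notes name HISAT2, StringTie 1.3.1 and hg38; the counting program and the gene annotation are not given in the sources used here. The deposited values are expected counts per gene made by the authors (87.4% to 88.3% of the values are whole), and were rounded to whole numbers. Of 20348 genes, 20310 had a symbol; 0 columns were left unused. Genes sharing sequence or lying antisense may share reads, since no source states that strand was kept; CD99 was listed under a pair of identifiers and counted once.

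Levels are CPM scaled by TMM over the 4 libraries (edgeR 4.0.16, R 4.3.3). Ratios carry exact (Clopper-Pearson) 95% intervals (Python 3.11.15, scipy 1.17.1), and a floor of 3 counts stands for 0. Intervals and floors cover counting error only. Treatment over both lines was tested with edgeR's quasi-likelihood test where 2 or more libraries held 10 or more counts, with DESeq2 1.42.0 as an alternative. The call rule was run on simulated data with counting error only. The fit over both lines was run on simulated data in which both lines responded alike. Neither run can show how spread between real replicates would affect the calls. Other scalings, filters, fold thresholds and assumed dispersions (0.04 and 0.16, edgeR exact test) were tried. Named genes were the 10 genes and their partners ITGB2, ITGB7, ITGB4 and ITGAV. From each list, up to 3 called genes with the largest ratios whose mean was 10 CPM or more were also named, per comparison. ICAM4, ICAM5, VCAM1, TPST2, RAP1GAP's THP-1 value and RASGRP2's K562 value were added after their values were seen. So were PODXL's K562 values and CD24's THP-1 values. FUT7 was among those of the line comparison. Markers were summed. The genes and lists were chosen with earlier results of these data known. Protein sequences were not used here. The 11 promoter windows were checked for strand against GENCODE 29 transcripts.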

Additional observations from a re-analysis of the deposited data

Results flagged for a closer look

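Of 6 genes compared between the lines, 4 had treatment ratios on opposite sides of no change. The log2 ratio in THP-1 minus that in K562 was 3.52 for ICAM1, 1.18 for ITGA5, 0.92 for ITGB1 and -1.69 for SELPLG. Each arm was 1 library, so these differences between lines were not tested. The counting interval of the difference lay entirely above or below 0 in 5 of the 6 genes, the exception being ICAM3. For neither count was a share over all genes computed, so neither sets these genes apart from others. CD44 was left out of these 6 for its 9 counts in K562 with periplocin; it too had ratios of opposite sign, -1.71 in K562 and 1.14 in THP-1.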

How the results depend on the processing

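Under TMM over each pair, total counts, DESeq2 size factors and 2 other count filters, 139 of 139 values of the adhesion genes kept their direction and their side of the call, and 0 reversed. The filters cannot change the ratio of a gene they keep, so their values are the same by construction. ITGAL in K562, which the filter at a mean of 1 CPM removed, was left out of the tally for that filter. TMM over the pair gave the main values again in K562 and between the DMSO libraries. With a 1.5-fold threshold 5197 genes were called in K562 and 5152 in THP-1; with a 4-fold threshold, 875 and 826, and 3917 between the DMSO libraries. Of the adhesion genes, the 4-fold threshold left 0 calls in K562 and 1 in THP-1 (ICAM1). An assumed dispersion of 0.04 gave 1829 genes in K562 and 1722 in THP-1, with 0 and 3 adhesion genes, the last being ICAM1, ITGA6 and CD44; ICAM2 and ITGAL were lost. A dispersion of 0.16 gave 118 and 97 genes, with 0 adhesion genes in either line, and 3463 between the DMSO libraries, where 6 adhesion calls were left and that of SELPLG was lost. The dispersions and the 4-fold threshold raise the bar by construction. For treatment over both lines, DESeq2 called 125 genes and edgeR without the filter 1, against 0; the cause was not tested. No paired analysis was possible because each group holds 1 library, other than that fit over both lines, in which each line is set against its own DMSO library. Depth limits ITGA4, ITGA6, ITGAL and CD44 in K562, at 0 to 29 counts.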
